A study of Mus musculus with 31 samples.

Results

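The genes described are 10 genes of pulmonary surfactant and of the alveolar type 2 cell that makes it: Sftpa1, Sftpb, Sftpc, Sftpd, Abca3, Lamp3, Slc34a2, Lpcat1, Napsa and Mfsd2a. They were chosen by name, each through its brightest probe set with 1 gene symbol in the platform annotation, and all 10 were found, each with 1 such probe set, among 19938 genes so named. All 10 lay above the filter on low values and are among the 14705 genes tested. The data are 31 Affymetrix arrays of whole lung from male mice, labelled 6 weeks old, of the inbred strains AKR and C57BL/6 (called C57). In each strain, mice that had breathed cigarette smoke or room air received lipopolysaccharide (LPS, bacterial endotoxin) in saline, or saline alone, into the trachea. These treatments gave 8 groups, each named by strain, exposure and instillation: AKR smoke LPS with 2 arrays, and AKR smoke saline, AKR air LPS, AKR air saline, C57 smoke LPS, C57 smoke saline, C57 air LPS and C57 air saline with 3 arrays each. A further 3 groups breathed room air with no instillation: AKR titled 3 weeks (2 arrays), AKR titled 6 weeks (3 arrays) and C57 titled 6 weeks (3 arrays). By the sample titles the instilled mice were exposed for 3 weeks. The text describing the series has them at 6 weeks and the uninstilled ones at 3, so how long each group was exposed is uncertain. No group had smoke without instillation. The labels give neither the dose of LPS nor the time of sampling after it, and they call the arrays biological replicates without saying whether lungs were pooled, so the p-values measure only the spread between these arrays, which may be partly technical.

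Surfactant is a film of phospholipid and protein that lowers surface tension in the alveoli. Type 2 cells assemble its lipid, mostly phosphatidylcholine, with the small hydrophobic proteins B and C in lysosome-related organelles, the lamellar bodies, and release it by exocytosis. Proteins A and D are collectins, soluble lectins that bind microbial sugars and take part in innate defence, and in the distal lung type 2 cells also keep their identity through transcription factors such as NKX2-1 and FOXA2.

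Promoter sequences were read from RefSeq (mouse build GRCm38.p6), where 7 of the 10 genes matched, and 4 are shown because those genes moved in different ways below: Sftpb lower after LPS in AKR, Sftpa1 with small differences, Lamp3 low on the saline arrays of AKR, and Lpcat1 lower against room air alone. Each line holds the 250 bases before the annotated start, read 5′ to 3′ on the gene's own strand, with capitals at matches to the motifs searched on both strands. The windows are chr6:72304360-72304609 on the plus strand for Sftpb, chr14:41131538-41131787 on the plus strand for Sftpa1, chr16:19706366-19706615 on the minus strand for Lamp3 and chr13:73466981-73467230 on the plus strand for Lpcat1.
Sftpb: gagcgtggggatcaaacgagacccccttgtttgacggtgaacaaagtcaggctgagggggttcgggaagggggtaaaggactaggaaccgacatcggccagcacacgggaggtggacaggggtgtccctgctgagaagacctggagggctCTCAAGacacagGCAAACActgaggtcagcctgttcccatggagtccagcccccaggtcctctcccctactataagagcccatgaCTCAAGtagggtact
Sftpa1: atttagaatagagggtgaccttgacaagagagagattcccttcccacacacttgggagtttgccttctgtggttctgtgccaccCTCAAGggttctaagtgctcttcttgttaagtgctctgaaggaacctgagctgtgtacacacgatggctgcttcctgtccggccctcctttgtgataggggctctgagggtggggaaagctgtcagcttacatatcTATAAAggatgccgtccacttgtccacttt
Lamp3: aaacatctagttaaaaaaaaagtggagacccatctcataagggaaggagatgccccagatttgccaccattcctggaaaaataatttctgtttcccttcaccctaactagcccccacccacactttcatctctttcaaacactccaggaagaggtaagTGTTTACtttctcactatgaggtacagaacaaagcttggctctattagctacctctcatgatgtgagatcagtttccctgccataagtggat
Lpcat1: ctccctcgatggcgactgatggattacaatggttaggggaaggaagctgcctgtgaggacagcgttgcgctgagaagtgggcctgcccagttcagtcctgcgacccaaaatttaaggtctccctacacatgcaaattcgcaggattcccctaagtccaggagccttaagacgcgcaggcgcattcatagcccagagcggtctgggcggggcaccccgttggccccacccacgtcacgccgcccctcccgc

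The motifs were CTCAAG, the core that the type 2 cell factor NKX2-1 binds, TGTTTAC and TGTTTGC, a pair of forkhead forms, CCAAT, and the TATA box as TATAAA. The Sftpb window holds CTCAAG at 100 to 95 and at 15 to 10 bases before the start, and TGTTTGC read on the opposite strand at 88 to 82 bases. The Sftpa1 window holds CTCAAG at 166 to 161 bases and TATAAA at 30 to 25 bases before the start. The Lamp3 window holds TGTTTAC at 92 to 86 bases, and the Lpcat1 window holds none of these letters. No match overlaps another in these windows. Of 32851 promoter windows of the same length, 13.3% hold CTCAAG, 3.2% TGTTTAC, 4.3% TGTTTGC, 33.8% CCAAT and 12.4% TATAAA on either strand. A match describes the letters and does not show that a factor binds there.

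The values are log2 intensities after robust multi-array averaging (RMA), and they carry no saturation flag. Sftpc was among the brightest probe sets, with 8 to 106 of 35556 probe sets brighter on an array and 0.22 to 1.46 log2 units below the array's maximum. Sftpa1 (10 to 182 brighter), Sftpb (26 to 203) and Slc34a2 (66 to 480) also lay near the top of the scale, where a probe set may read less than the true difference. Mfsd2a was the dimmest, never below percentile 50.02 of an array. The defining type 2 markers Sftpb, Sftpc, Abca3, Lamp3 and Slc34a2 were at or above percentile 89.71 on every array. In bulk lung, fewer type 2 cells and less RNA per type 2 cell cannot be told apart.

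The arrays fell into 2 sets by their distributions. The larger held 18 arrays, all C57 and the AKR room air arrays titled 6 weeks, with medians from 6.96 to 7.10, and the smaller held the other 13 AKR arrays, with medians from 6.80 to 6.90. A comparison of AKR with C57 after instillation therefore also compares the sets. A pair of arrays went against their labels: the one labelled C57 smoke LPS 3 read 6.06 for the acute-phase gene Saa3, and the one labelled C57 smoke saline 3 read 12.47, where the other smoke LPS arrays of C57 read 12.64 and 12.85 and the other smoke saline arrays 6.10 and 6.36. Results are given with this pair and, where it matters, without it, called the doubted pair. Because 1 fit shares its spread among all groups, the pair also entered the errors of other comparisons. The within-group SD of Sftpd was 0.21 with it and 0.14 without it, that of Sftpb 0.13 and 0.10, and that of Sftpc 0.17 and 0.15. For the other genes it differed by at most 0.01, and it was slightly larger without the pair for Lamp3, Slc34a2, Napsa and Mfsd2a. The number of arrays limits the precision of every value.

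**Figure D1:**
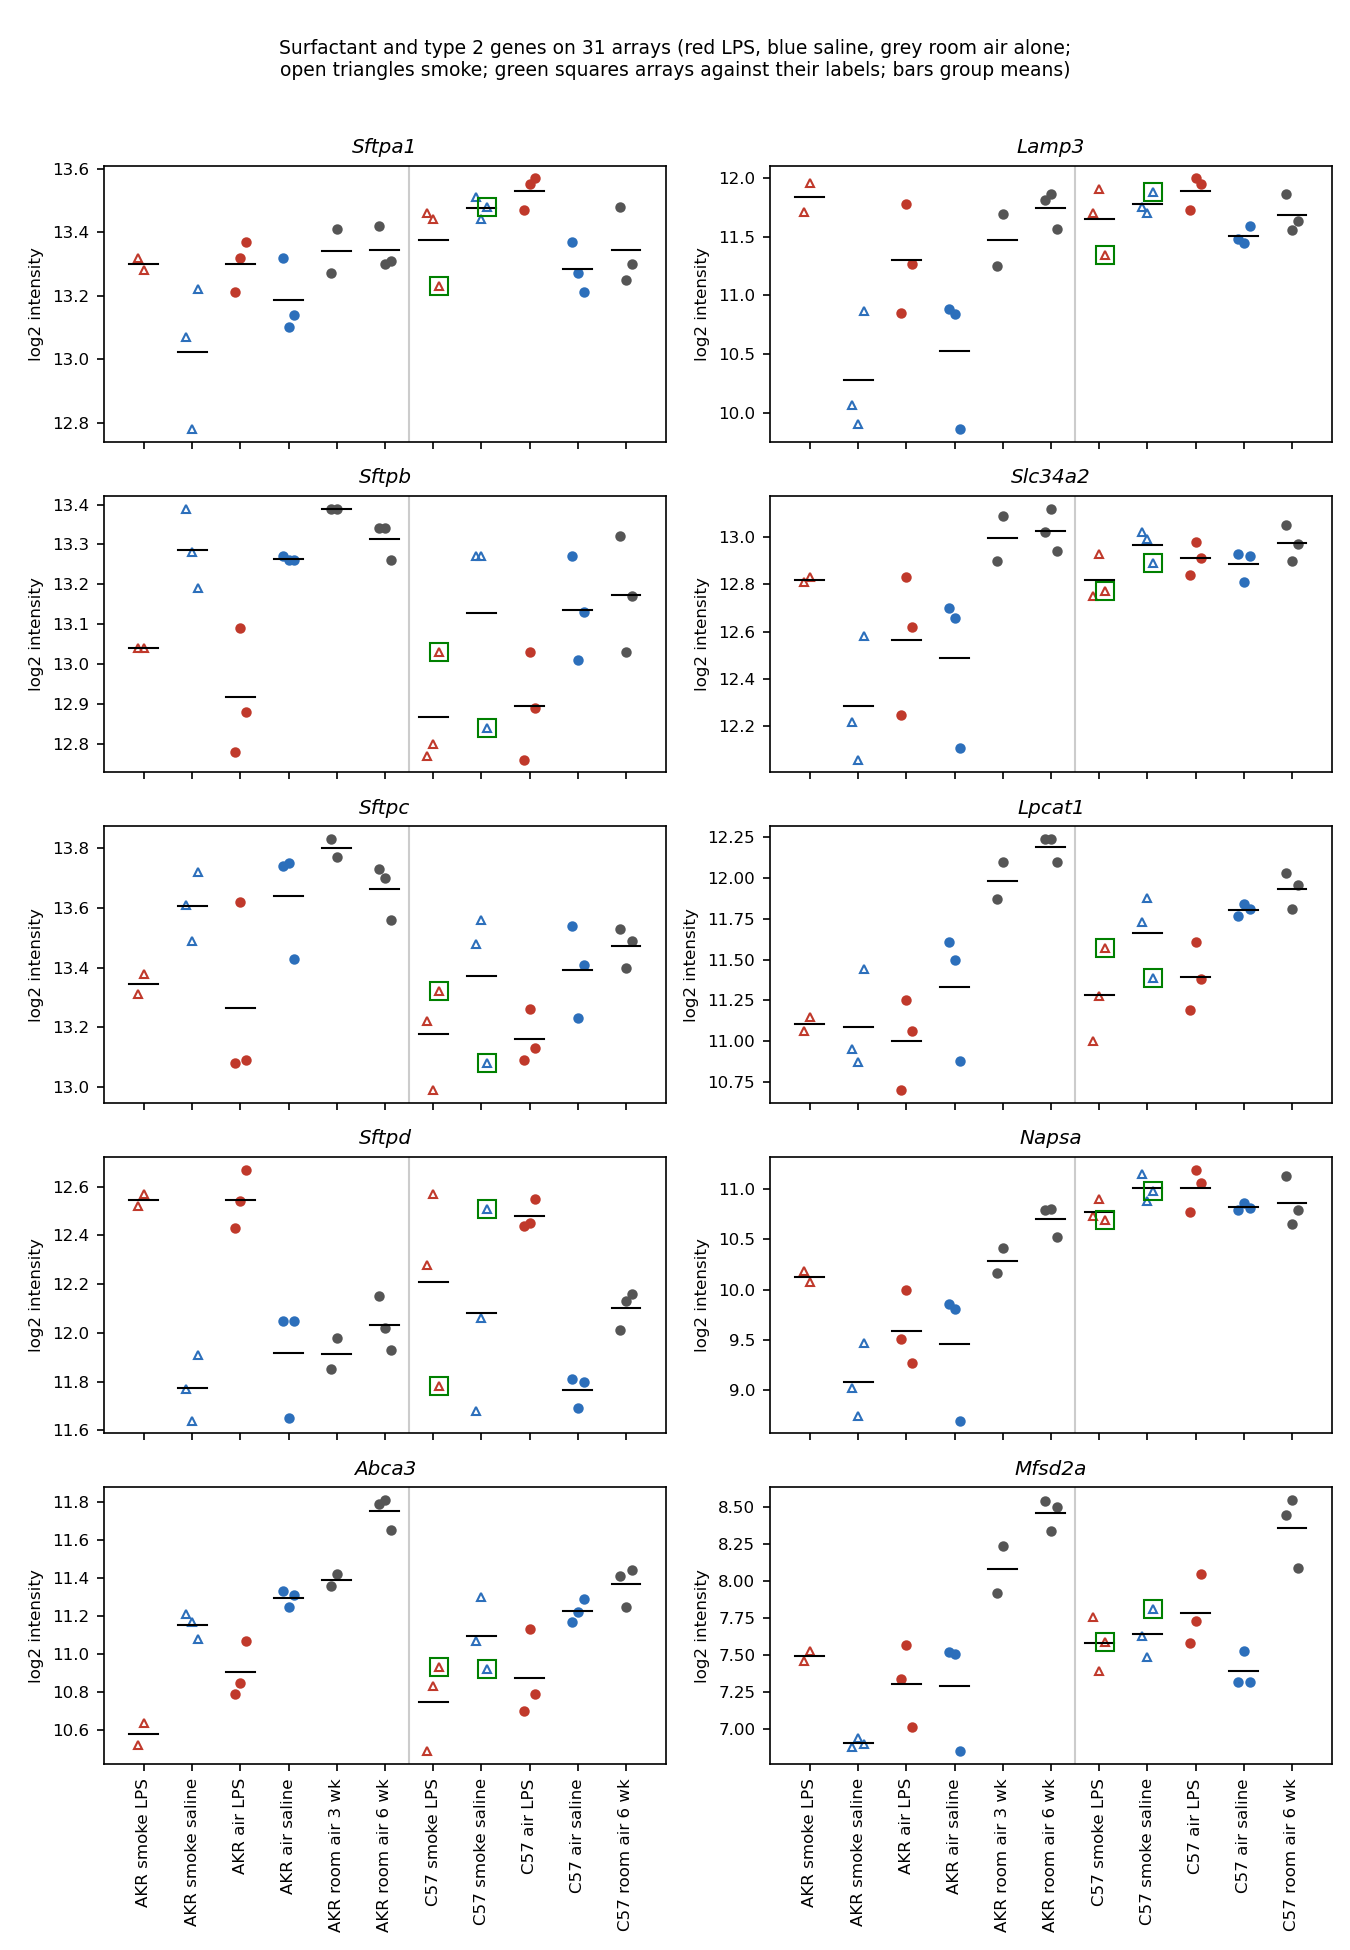
Log2 intensity (vertical axes, 1 panel per gene) on each of the 31 arrays by group, with bars at group means, red for LPS, blue for saline, grey for room air alone, open triangles for smoke and green squares for the doubted pair. Sftpd is higher on the LPS arrays outside the squares, Mfsd2a is highest in room air alone, and Lamp3 and Napsa spread widest among the AKR arrays.

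When the 11 groups were put in order of their means for each gene, the ranges of neighbouring groups overlapped in all 10 steps for Sftpa1, Sftpd, Lamp3, Slc34a2 and Mfsd2a, in 9 of 10 steps for Sftpb, Sftpc, Abca3 and Lpcat1, and in 8 of 10 for Napsa. Over all 31 arrays Sftpb spanned 0.63, Sftpa1 0.79 and Sftpc 0.84 log2 units. The widest spans were those of Napsa (2.49) and Lamp3 (2.14), whose lowest array was in both cases AKR air saline 3.

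The group with the highest mean differed by gene. Sftpd was highest in AKR air LPS (12.55 ± 0.124, SD, n = 3) and lowest in C57 air saline (11.77 ± 0.0613, n = 3). Sftpa1 (13.53 ± 0.0494), Lamp3 (11.89 ± 0.145) and Napsa (11.01 ± 0.215) were highest in C57 air LPS and lowest in AKR smoke saline, at 13.03 ± 0.225, 10.28 ± 0.518 and 9.08 ± 0.363 (SD, n = 3 each). Room air alone in AKR held the highest mean of the other genes. Titled 6 weeks, it was highest for Abca3 (11.75 ± 0.0879), Lpcat1 (12.19 ± 0.0832), Slc34a2 (13.03 ± 0.0934) and Mfsd2a (8.46 ± 0.105, SD, n = 3 each). Titled 3 weeks, it was highest for Sftpb (13.39 on both arrays) and Sftpc (13.83 and 13.77). Their lowest means were in AKR smoke LPS for Abca3 (10.58 ± 0.0824, n = 2), AKR air LPS for Lpcat1 (11 ± 0.28), AKR smoke saline for Slc34a2 (12.29 ± 0.269) and Mfsd2a (6.91 ± 0.034), C57 smoke LPS for Sftpb (12.87 ± 0.146) and C57 air LPS for Sftpc (13.16 ± 0.0867). C57 smoke LPS holds a doubted array, and its other arrays read 13.22 and 12.99 for Sftpc, so the lowest place of Sftpc rests on that array.

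LPS against saline measured the response to endotoxin, and Sftpd, the collectin surfactant protein D, rose in 3 of the 4 comparisons. On the AKR smoke LPS arrays Sftpd read 12.52 and 12.57, against 11.77, 11.64 and 11.91 with saline after smoke. After air it read 12.43, 12.54 and 12.67 with LPS in AKR, against 12.05, 11.65 and 12.05 with saline. In C57 after air it read 12.44, 12.45 and 12.55 with LPS, against 11.81, 11.69 and 11.80 with saline. No LPS array overlapped a saline array in these 3 comparisons. The share of all genes without overlap is not given, here or for the genes below, so a lack of overlap is a description only. The log2 fold change was 0.77 ± 0.19 in AKR after smoke (standard error of the limma fit, 1.71-fold, adjusted p = 0.0032), 0.63 ± 0.17 in AKR after air (1.55-fold, adjusted p = 0.012) and 0.71 ± 0.17 in C57 after air (1.64-fold, adjusted p = 0.0079). Without AKR air saline 2 the AKR value after air was 0.49 (limma adjusted p = 0.068) and no longer passed.

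In C57 after smoke Sftpd read 12.28, 12.57 and 11.78 on the arrays labelled LPS, against 11.68, 12.06 and 12.51 on those labelled saline. The third array of each group lies among the other group's values, and the difference was 0.13 ± 0.17 (limma adjusted p = 0.82). Without the doubted pair it was 0.55 ± 0.14 (limma adjusted p = 0.007). Sftpa1, the other collectin measured, did not pass in any LPS comparison with all arrays. It read 13.47, 13.55 and 13.57 with LPS after air in C57, against 13.37, 13.27 and 13.21 with saline, a difference of 0.25 ± 0.10 (limma adjusted p = 0.074). In AKR the difference was 0.28 ± 0.11 after smoke (adjusted p = 0.051, 0.045 without the doubted pair and 0.011 without AKR smoke saline 3) and 0.11 ± 0.10 after air (adjusted p = 0.45). Sftpa1 lay near the top of the scale on these arrays.

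Of the 10 genes, 6 passed for LPS against saline after smoke in AKR (limma adjusted p under 0.05), 5 higher and 1 lower. Of all genes tested 31.5% passed there, 16.9% higher and 14.6% lower. After air, 4 passed in AKR, 2 in each direction, where 16.9% of all genes passed, 9.45% higher and 7.41% lower. In C57 after air 2 passed, 1 in each direction, against a background of 15.7% (11.5% higher and 4.3% lower), which is a similar share. In C57 after smoke 0 passed with all arrays (0% of all genes). At an unadjusted p under 0.05 there were 3 of the 10, beside 1300 of the 14705 genes tested. Without the doubted pair 4 passed there, 1 higher and 3 lower, where 20.7% of all genes passed (10.9% higher and 9.79% lower). The median change of the 10 was 0.40 in AKR after smoke, 0.04 in AKR after air and 0.11 in C57 after air, beside medians over all genes of 0.00, -0.04 and -0.01. In C57 after smoke it was -0.17 (-0.18 without the doubted pair), beside -0.03 for all genes.

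**Figure D2:**
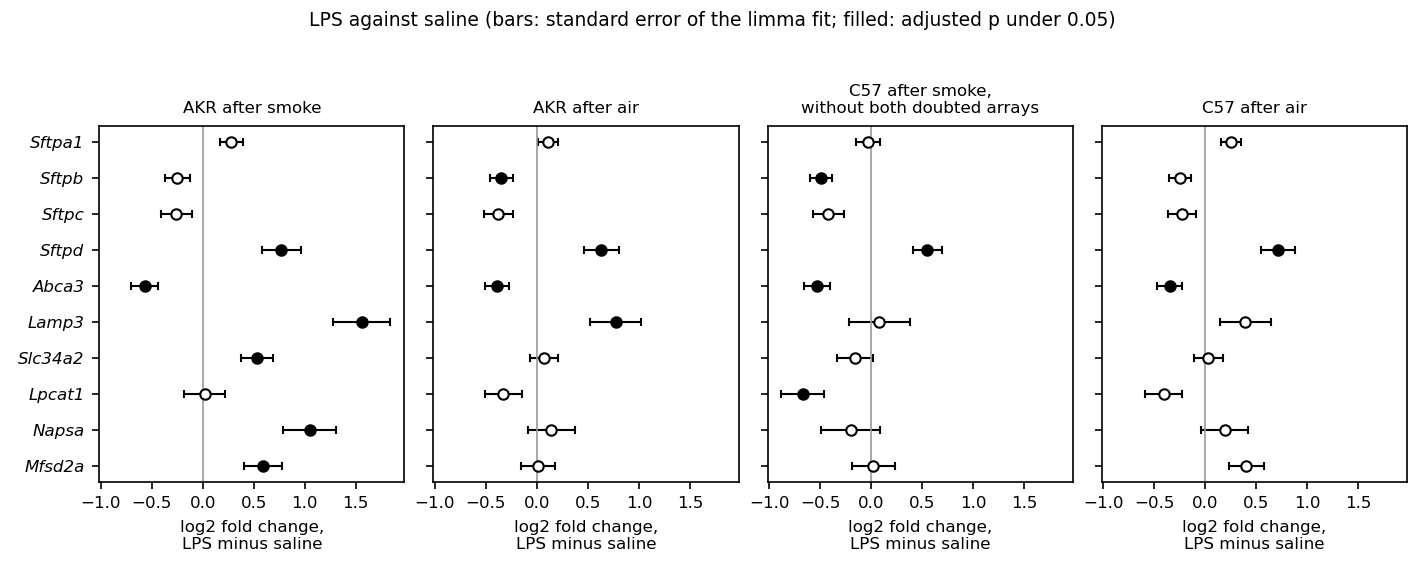
Log2 fold change of each gene, LPS minus saline (horizontal axes), with bars for the standard error of the limma fit and filled points for adjusted p under 0.05, in AKR after smoke, AKR after air, C57 after smoke without the doubted pair and C57 after air. Sftpd lies right of 0 and Sftpb, Sftpc and Abca3 lie left of 0 in every panel, while Lamp3 and Napsa lie farthest right in AKR after smoke.

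Abca3, the transporter that loads phospholipid into lamellar bodies, fell after LPS in both strains. It read 10.52 and 10.64 on the AKR smoke LPS arrays, against 11.21, 11.17 and 11.08 with saline after smoke, a change of -0.57 ± 0.13 (limma adjusted p = 0.002). After air in AKR it read 10.79, 10.85 and 11.07 with LPS, against 11.33, 11.25 and 11.31 with saline (-0.39 ± 0.12, limma adjusted p = 0.021). In C57 after air it read 10.70, 11.13 and 10.79 with LPS, against 11.17, 11.22 and 11.29 with saline (-0.35 ± 0.12, limma adjusted p = 0.041). The groups did not overlap, although C57 air LPS 2 came close to the saline arrays. The calls after air were narrow: in C57 the call was lost without C57 air LPS 1 or 3 or without any 1 of the saline arrays (adjusted p from 0.073 to 0.15), and in AKR it lost it without AKR air LPS 1 or 2 or AKR air saline 1 or 3 (0.053 to 0.092). In C57 after smoke the change was -0.35 ± 0.12 with all arrays (limma adjusted p = 0.56), -0.44 without C57 smoke LPS 3 (adjusted p = 0.025) and -0.53 ± 0.13 without the doubted pair (adjusted p = 0.0062).

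Sftpb, the hydrophobic protein that spreads the lipid film and whose promoter is shown first above, read 12.78, 13.09 and 12.88 with LPS after air in AKR, against 13.27, 13.26 and 13.26 with saline. It fell there by 0.35 on the log2 scale (standard error 0.11, limma adjusted p = 0.031), and the call was lost without AKR air LPS 1 or 3 or without any 1 of the saline arrays (adjusted p from 0.064 to 0.13). Over both exposures the AKR LPS arrays spanned 12.78 to 13.09 and the AKR saline arrays 13.19 to 13.39. In AKR after smoke the change was -0.25 ± 0.12 (adjusted p = 0.13), and in C57 after air -0.25 ± 0.11 (adjusted p = 0.13; just under 0.05 without the doubted pair). In C57 after smoke Sftpb read 12.77, 12.80 and 13.03 with LPS, against 13.27, 13.27 and 12.84 with saline, which gave -0.26 ± 0.11 (adjusted p = 0.56) and, without the doubted pair, -0.49 ± 0.11 (adjusted p = 0.0025).

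Sftpc, the other hydrophobic protein and a gene of type 2 cells in the adult lung, did not pass with all arrays. In AKR after air it read 13.08, 13.62 and 13.09 with LPS, against 13.74, 13.75 and 13.43 with saline, with AKR air LPS 2 among the saline values. The change was -0.38 ± 0.14 (limma adjusted p = 0.056), -0.56 without AKR air LPS 2 (adjusted p = 0.0093), -0.49 without AKR air saline 3 (adjusted p = 0.032) and -0.38 ± 0.12 without the doubted pair (adjusted p = 0.027). In the other LPS comparisons it was -0.26 in AKR after smoke, -0.23 in C57 after air and -0.20 in C57 after smoke (-0.42 there without the doubted pair, adjusted p = 0.051), none of which passed. Lpcat1, the acyltransferase that makes the saturated phosphatidylcholine of surfactant, read 11.19, 11.61 and 11.38 with LPS after air in C57, against 11.77, 11.84 and 11.81 with saline. These groups did not overlap, and the difference of -0.41 ± 0.18 did not pass (limma adjusted p = 0.12). The difference of Lpcat1 in C57 after smoke was -0.38 ± 0.18 with all arrays (adjusted p = 0.56) and -0.67 ± 0.21 without the doubted pair (adjusted p = 0.025), and in AKR after smoke it was 0.02 ± 0.20 (adjusted p = 0.96). Without AKR air saline 3 its change in AKR after air was -0.55 (adjusted p = 0.046), against -0.33 ± 0.18 with it (adjusted p = 0.23).

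Lamp3, a membrane protein of lamellar bodies that mature dendritic cells also express, had the largest rise of the 10 in AKR. It read 11.71 and 11.96 on the AKR smoke LPS arrays, against 10.07, 9.90 and 10.87 with saline after smoke, a change of 1.56 ± 0.28 (2.94-fold, limma adjusted p = 3e-04). After air it read 10.85, 11.78 and 11.27 with LPS in AKR, against 10.88, 10.84 and 9.86 with saline (0.77 ± 0.25, limma adjusted p = 0.035). The groups after air overlapped, and the call was lost without AKR air saline 3 (0.44, adjusted p = 0.23), AKR air LPS 2 (0.53, adjusted p = 0.20) or AKR air LPS 3 (0.79, adjusted p = 0.061). In C57 Lamp3 read 11.73, 12 and 11.95 with LPS after air, against 11.48, 11.45 and 11.59 with saline (0.39 ± 0.25, adjusted p = 0.28). These C57 groups did not overlap. In a limma fit of only the arrays compared, Lamp3 passed in C57 after air (0.39 ± 0.10, adjusted p = 0.033). In such a fit it did not pass in AKR after air (0.77 ± 0.33, adjusted p = 0.20).

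Napsa, the aspartic protease that trims the precursors of proteins B and C, read 10.18 and 10.07 on the AKR smoke LPS arrays, against 9.02, 8.75 and 9.47 with saline after smoke, and rose by 1.05 ± 0.26 (2.06-fold, limma adjusted p = 0.0036). Slc34a2, the sodium and phosphate cotransporter of the type 2 cell surface, read 12.81 and 12.83 there, against 12.22, 12.06 and 12.58 with saline (0.53 ± 0.16, limma adjusted p = 0.013). Mfsd2a, a transporter of lysophosphatidylcholine, read 7.46 and 7.53 with LPS, against 6.88, 6.94 and 6.90 with saline (0.59 ± 0.19, limma adjusted p = 0.021). None of these groups overlapped, with only 2 LPS arrays in each comparison. The Slc34a2 call was lost without AKR smoke LPS 1 or 2 or AKR smoke saline 2 (adjusted p from 0.068 to 0.085), and the Mfsd2a call without AKR smoke LPS 1 or 2 or AKR smoke saline 1 (0.053 to 0.12). After air in AKR the changes were 0.14 ± 0.23 for Napsa, 0.07 ± 0.14 for Slc34a2 and 0.01 ± 0.17 for Mfsd2a, none of which passed. After air in C57 they were 0.19 ± 0.23 for Napsa, 0.03 ± 0.14 for Slc34a2 and 0.40 ± 0.17 for Mfsd2a (limma adjusted p = 0.11), and after smoke in C57 -0.23, -0.15 and -0.06, beside -0.13 for Lamp3 and -0.10 for Sftpa1, none of which passed with or without the doubted pair.

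The rises of Lamp3, Napsa and Slc34a2 were measured against AKR saline arrays that were low. The mean of Lamp3, Napsa, Slc34a2 and Lpcat1 relative to all 31 arrays, a group of 4 genes picked after their values were seen and given as a description, was -0.08 and -0.01 on the AKR smoke LPS arrays and -0.95, -1.12 and -0.43 on AKR smoke saline. It was -0.69, -0.05 and -0.46 on AKR air LPS, -0.26, -0.31 and -1.13 on AKR air saline, and 0.03 and 0.31 on AKR room air titled 3 weeks. Markers of other lung cells were low or high on several of the same arrays. Over 12 alveolar type 1 markers the mean was -0.37, -0.43 and 0.06 on AKR smoke saline and -0.17, 0.06 and -0.72 on AKR air saline. Over 8 endothelial markers it was -0.45, -0.50 and 0.05 on AKR smoke saline and -0.16, 0.12 and -0.91 on AKR air saline. The club cell markers ran high there, at 0.84, 0.63 and 0.44 on AKR smoke saline and 0.52, 0.35 and 0.89 on AKR air saline, and the general epithelial markers read 0.63, 0.69 and 0.14 on AKR smoke saline and 0.04, -0.03 and 0.27 on AKR air saline. The heart muscle markers were highest on AKR air saline 3, at 1.76. The part of these differences between arrays in the results for LPS was not tested.

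**Figure D3:**
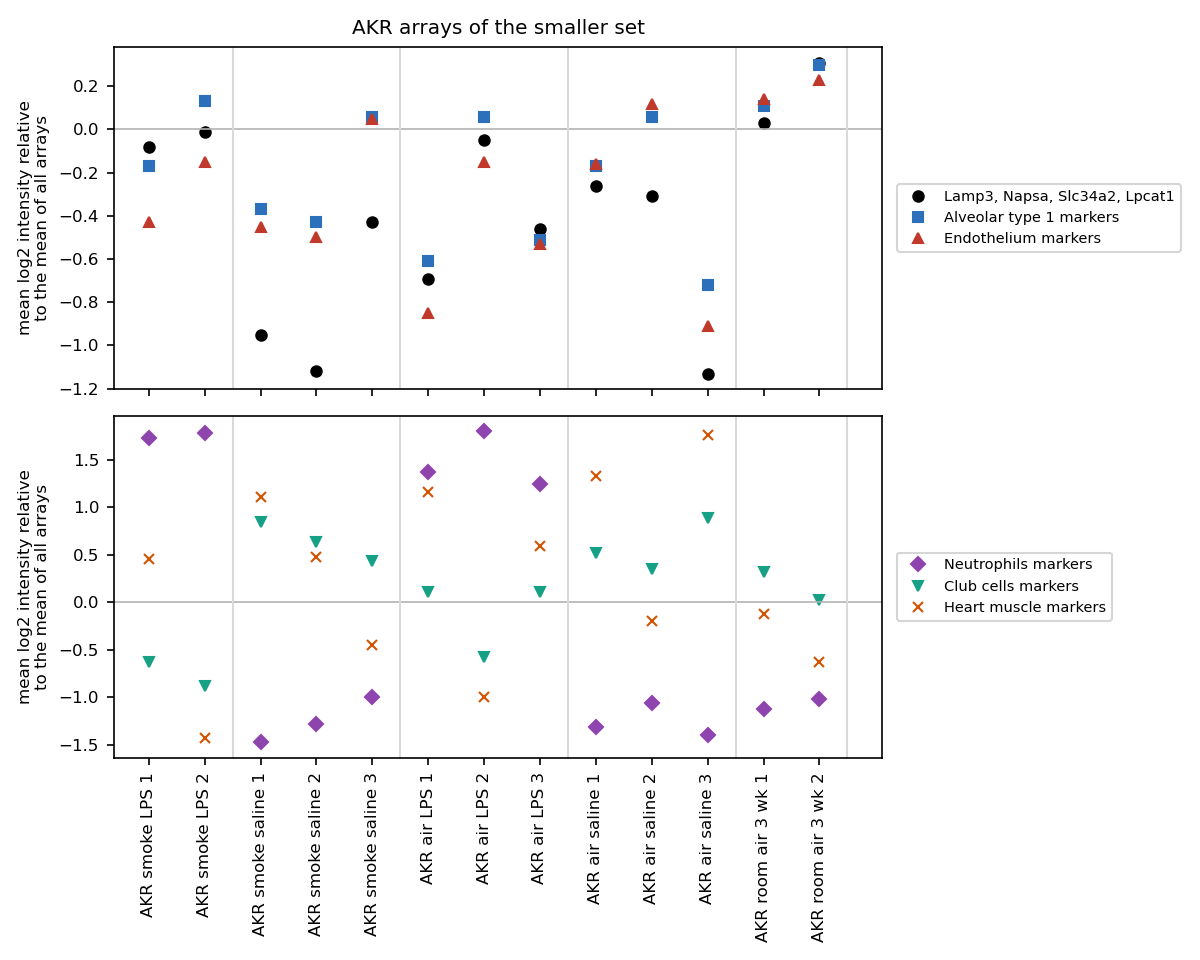
Mean log2 intensity relative to the mean of all 31 arrays (vertical axes) on the 13 AKR arrays of the smaller set, for the 4 members and the type 1 and endothelial markers (top) and for neutrophil, club cell and heart muscle markers (bottom). AKR air saline 3 and AKR smoke saline 1 and 2 are the lowest for the 4 members, at -1.13, -0.95 and -1.12.

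With room air alone as the baseline, a comparison added after the data were seen, the same LPS arrays gave another picture for these genes. In AKR smoke LPS against AKR room air titled 3 weeks, Lamp3 differed by 0.37 ± 0.30, Napsa by -0.16 ± 0.28 and Slc34a2 by -0.17 ± 0.17, none of which passed. Of the 10 genes, Sftpd rose by 0.63 ± 0.20 (limma adjusted p = 0.036), and Abca3 (-0.81 ± 0.14, adjusted p = 0.0012) and Lpcat1 (-0.88 ± 0.22, adjusted p = 0.01) fell, so that 3 passed where 17.5% of all genes did (9.36% higher and 8.11% lower). The count was 6 without the doubted pair (23.7% of all genes), since Sftpb (-0.35, adjusted p = 0.021), Sftpc (-0.46, adjusted p = 0.029) and Mfsd2a (-0.59, adjusted p = 0.045) passed as well. In AKR air LPS 6 of the 10 passed against the same room air arrays, where 15.8% of all genes did (5.54% higher and 10.3% lower). Sftpd rose by 0.63 ± 0.19, and Lpcat1 (-0.98 ± 0.20), Mfsd2a (-0.77 ± 0.19), Sftpc (-0.54 ± 0.15), Sftpb (-0.48 ± 0.12) and Abca3 (-0.48 ± 0.13) fell, while Lamp3 differed by -0.17 ± 0.28. The count was also 6 without the doubted pair (21.6% of all genes).

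In C57 air LPS against C57 room air titled 6 weeks 3 of the 10 passed, all lower: Mfsd2a (-0.58 ± 0.17), Lpcat1 (-0.54 ± 0.18) and Abca3 (-0.50 ± 0.12), where 22.9% of all genes passed (15.1% higher and 7.75% lower). Sftpd differed by 0.38 ± 0.17 and Sftpb by -0.28 ± 0.11 there and did not pass (limma adjusted p = 0.10 and 0.066). Both passed without the doubted pair (0.017 and 0.021), so that 5 of the 10 did, 1 higher and 4 lower, where 28.4% of all genes passed. After air, Abca3 was lower with LPS against either baseline in both strains, and Lpcat1 was lower with LPS against room air alone in both. The comparisons with saline and with room air share their LPS arrays, and the C57 groups also differ in titled exposure time.

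Saline against room air alone asked what instillation itself did, and Mfsd2a was the gene of the 10 that passed. In C57 it read 7.32, 7.53 and 7.32 with saline after air, against 8.45, 8.55 and 8.09 in room air alone, and fell by 0.98 on the log2 scale (standard error 0.17, 0.509-fold, limma adjusted p = 0.048). That was 1 of 10 genes, where 0.0136% of all genes passed. The call is narrow: it was lost without C57 air saline 1, 2 or 3 or C57 room air 1 or 2 (adjusted p from 0.065 to 0.53), and with the replicate number as a block, which paired these groups (adjusted p = 0.069, 0 of the 10 passing). In AKR, where both groups are titled 3 weeks, Mfsd2a read 7.52, 7.51 and 6.85 with saline, against 7.92 and 8.24 in room air alone. The change was -0.79 ± 0.19 (limma adjusted p = 0.052), and 0 of the 10 passed where 0.687% of all genes did. At an unadjusted p under 0.05 there were 5 of the 10, beside 2701 of the 14705 genes tested. Mfsd2a passed in AKR without AKR air saline 1 (adjusted p = 0.042), without AKR air saline 2 (0.04) and without the doubted pair (0.035, where 2.22% of all genes passed).

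Mfsd2a read lower on instilled than on uninstilled arrays in both strains. Over all instilled AKR arrays, LPS and saline, it spanned 6.85 to 7.57, against 7.92 to 8.54 in AKR room air alone. Over all instilled C57 arrays it spanned 7.32 to 8.05, against 8.09 to 8.55 in C57 room air alone. The ranges did not overlap in either strain, although they nearly met in C57. The share of all genes with such a separation is not given here. Every instilled AKR array is in the smaller set, while the AKR room air arrays titled 6 weeks (8.34 to 8.54) are in the larger. Within the smaller set AKR room air read 7.92 and 8.24, so the AKR ranges partly compare the sets. In C57, instillation and titled exposure time cannot be told apart. The other differences between saline and room air in C57 ran from -0.34 ± 0.17 for Sftpd (limma adjusted p = 0.82) to -0.04 for Sftpb and Napsa. In AKR, Lamp3 (-0.94 ± 0.28), Napsa (-0.83 ± 0.26), Lpcat1 (-0.66 ± 0.20) and Slc34a2 (-0.50 ± 0.16) read lower with saline on every array and did not pass (adjusted p from 0.10 to 0.12).

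Smoke against air was compared within each instillation, and 0 of the 10 genes passed in any of the 4 comparisons, with or without the doubted pair. The background was 0.034% of all genes with saline in AKR, 0.0068% with LPS in AKR, and 0% in both C57 comparisons. Without the doubted pair it was 0.333% with saline in AKR, 1.55% with LPS in AKR and 0% in both C57 comparisons. At an unadjusted p under 0.05 the members numbered 1 with saline in AKR, 2 with LPS in AKR, and 0 in C57. Of the 14705 genes tested, 944 with saline and 2342 with LPS reached that level in AKR. In C57 906 did with saline and 217 with LPS. Over the 10 genes the differences spanned -0.39 to 0.02 with saline in AKR, -0.32 to 0.54 with LPS in AKR, -0.14 to 0.32 with saline in C57 and -0.27 to 0.01 with LPS in C57. In AKR with saline the value farthest from 0 was that of Mfsd2a (-0.39 ± 0.17, limma adjusted p = 0.70), which read 6.88, 6.94 and 6.90 after smoke and 7.52, 7.51 and 6.85 after air. In AKR with LPS it was that of Lamp3 (0.54 ± 0.28, adjusted p = 0.34), followed by Napsa (0.53 ± 0.26, adjusted p = 0.31) and Abca3 (-0.32 ± 0.13, adjusted p = 0.25). For Sftpd the 95% interval of the smoke difference was -0.49 to 0.20 with saline in AKR, -0.39 to 0.38 with LPS in AKR, -0.03 to 0.66 with saline in C57 and -0.61 to 0.08 with LPS in C57. For Sftpc the 4 intervals lay between -0.31 and 0.39. A true difference anywhere inside these intervals is compatible with these arrays as labelled.

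The response to LPS was then compared between strains and between exposures by interaction terms of the same fit. For AKR against C57 after air, 0 of the 10 genes passed where 1.14% of all genes did. At an unadjusted p under 0.05 there were also 0 of the 10, beside 1651 of the 14705 genes tested. The difference in the Sftpd response was -0.09, with a 95% interval of -0.57 to 0.40, and that in the Lamp3 response was 0.38 (-0.34 to 1.11), intervals that hold differences in either direction. Over the 10 genes these differences spanned -0.38 to 0.38. For smoke against air 0 of the 10 passed in AKR, where 0% of all genes did. There Napsa (0.91, 95% interval 0.19 to 1.62, limma adjusted p = 0.73), Lamp3 (0.78, 0.01 to 1.55), Mfsd2a (0.57, 0.05 to 1.10) and Slc34a2 (0.46, 0.02 to 0.90) were the 4 with an unadjusted p under 0.05. Of the 14705 genes tested 992 reached that level. The 10 spanned -0.18 to 0.91. In C57 0 passed (0% of all genes), the 10 spanned -0.59 to 0.03, and the Sftpd interaction was -0.59 (-1.07 to -0.10, adjusted p = 0.67), and -0.16 without the doubted pair.

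Between strains in room air alone, both titled 6 weeks and in the same set of arrays, 0 of the 10 genes passed where 2.69% of all genes did, and their differences spanned -0.15 to 0.38. Abca3 came closest, at 11.81, 11.65 and 11.79 in AKR against 11.41, 11.25 and 11.44 in C57 (0.38 ± 0.12, limma adjusted p = 0.089; 0.049 without the doubted pair, where 3.69% of all genes passed). With saline after air 4 of the 10 were lower in AKR, where 38.4% of all genes tested passed and 31.1% were lower: Napsa (-1.36 ± 0.23, limma adjusted p = 7.5e-05), Lamp3 (-0.98 ± 0.25, adjusted p = 0.0035), Lpcat1 (-0.48 ± 0.18, adjusted p = 0.041) and Slc34a2 (-0.39 ± 0.14, adjusted p = 0.032). Strain and set of arrays cannot be told apart there, and with the set as a term 0 passed, where 1187 of the 14705 genes tested did. The median of all genes was itself shifted by -0.16 in that comparison. With each array's median subtracted, 2 of the 10 were lower (Napsa and Lamp3) and 2 higher (Sftpb and Sftpc). The share of all genes in that setting is not given, so these counts are a description only. Over the alternatives other than single arrays left out, 1187 to 7598 genes passed. The Lpcat1 call was also lost without any 1 of the C57 saline arrays and without AKR air saline 3 (adjusted p from 0.072 to 0.29), and the Slc34a2 call without C57 air saline 1 or 3 or AKR air saline 3 (0.08 to 0.27).

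Transcription factors of type 2 cells, a list of 10, fell or did not pass after LPS, and 0 rose in any LPS comparison. In AKR after smoke 3 fell (4 without the doubted pair): Cebpa (-0.85 ± 0.25), Foxa1 (-0.80 ± 0.16) and Nkx2-1 (-0.60 ± 0.16, limma adjusted p = 0.0061). In AKR after air 3 fell (6 without the doubted pair), Nkx2-1 (-0.65 ± 0.14, adjusted p = 0.0029), Gata6 (-0.48 ± 0.14) and Foxa1 (-0.46 ± 0.15), and in C57 after air 2 did (3 without the pair), Cebpa (-0.68 ± 0.22) and Nfib (-0.41 ± 0.13). NKX2-1 is the factor whose core motif stands in the Sftpb and Sftpa1 windows shown above, and in C57 after air it differed by -0.38 ± 0.14 (adjusted p = 0.072; 0.029 without the doubted pair). With all arrays 0 passed in C57 after smoke, and 5 fell without the doubted pair, where 9.79% of all genes were lower. With all arrays the shares of all genes that were lower were 14.6% in AKR after smoke, 7.41% in AKR after air and 4.3% in C57 after air. Without the doubted pair the shares for these comparisons are not given. Over the alternative settings that include it, at most 5153, 3333 and 3367 of the 14705 genes passed in either direction. The list's median was -0.29 in AKR after smoke, -0.41 in AKR after air and -0.25 in C57 after air, beside medians over all genes of 0.00, -0.04 and -0.01.

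Of 15 other type 2 markers, 4 rose and 6 fell in AKR after smoke, 1 rose and 4 fell in AKR after air, and 1 rose and 4 fell in C57 after air. Beside these counts, 16.9% of all genes tested were higher and 14.6% lower in AKR after smoke. The shares were 9.45% and 7.41% in AKR after air, and 11.5% and 4.3% in C57 after air. Chil1, a chitinase-like lectin also made by macrophages and neutrophils, rose by 2.15 ± 0.36 in AKR after smoke and 2.38 ± 0.32 in AKR after air. The alarmin cytokine Il33 rose by 1.78 ± 0.25 in AKR after smoke and 0.95 ± 0.23 in C57 after air. In AKR after air Lgi3 (-1.21 ± 0.35) and S100g (-1.11 ± 0.31) fell. Complement component Hc fell in these 3 comparisons (-1.89 ± 0.43, -1.14 ± 0.38 and -1.24 ± 0.38), and the acyl-CoA oxidase-like gene Acoxl fell in AKR after smoke (-1.41 ± 0.47) and in C57 after air (-1.62 ± 0.42). With all arrays 0 passed in C57 after smoke, and 6 fell and 0 rose without the doubted pair, where 10.9% of all genes were higher and 9.79% lower.

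**Figure D4:**
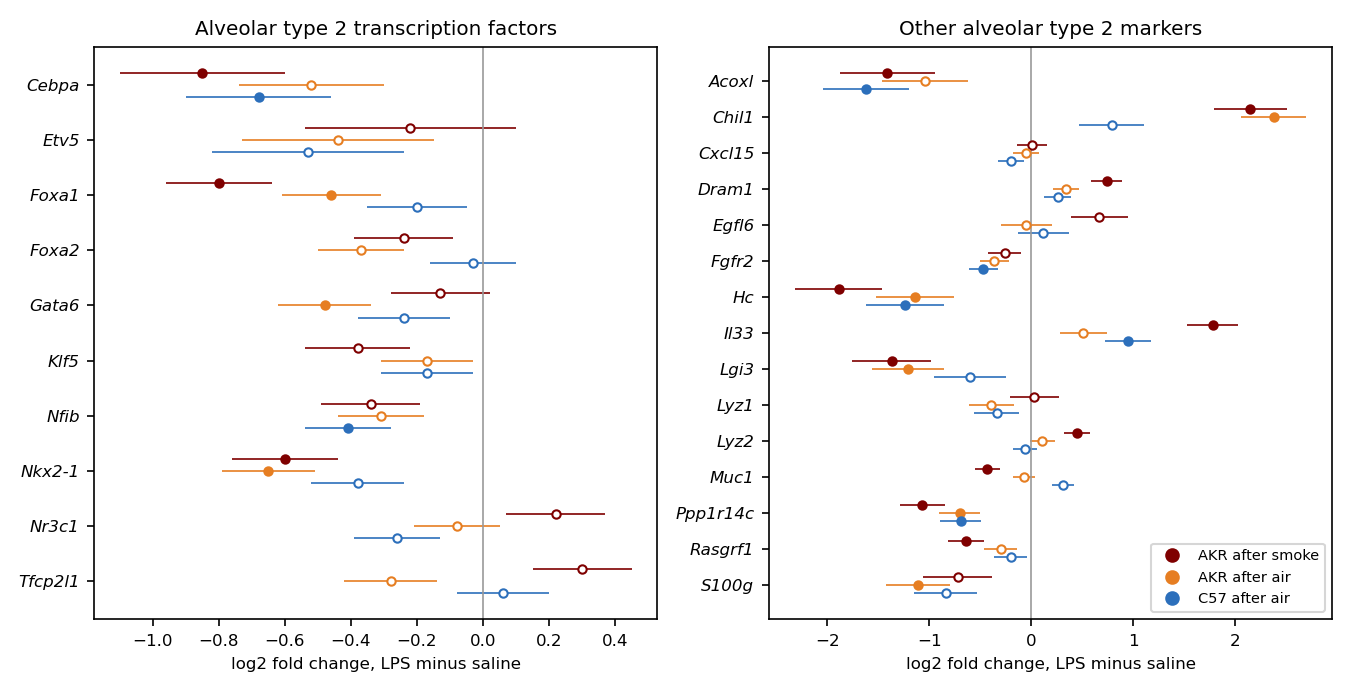
Log2 fold change, LPS minus saline (horizontal axes), of 10 type 2 transcription factors (left) and 15 other type 2 markers (right) in AKR after smoke, AKR after air and C57 after air, with bars for the standard error of the limma fit and filled points for adjusted p under 0.05. Every filled factor lies left of 0, while Chil1 and Il33 lie right of 0.

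Of 13 genes of surfactant processing, secretion and clearance tested out of 15 listed, 5 rose and 1 fell in AKR after smoke, 5 rose and 0 fell in AKR after air, and 5 rose and 1 fell in C57 after air. The others did not pass. Among all genes tested 16.9%, 9.45% and 11.5% were higher in these comparisons, and 14.6%, 7.41% and 4.3% were lower. The growth factor Csf2, which alveolar macrophages need to clear surfactant, rose by 2.89 ± 0.53, 1.80 ± 0.48 and 2.22 ± 0.48 in those comparisons, its receptor chain Csf2rb by 3.00 ± 0.53, 2.51 ± 0.47 and 1.88 ± 0.47, and its receptor chain Csf2ra by 1.24 ± 0.25, 0.87 ± 0.22 and 0.66 ± 0.22. P2ry2, the purine receptor that triggers secretion of surfactant, rose by 1.81 ± 0.23, 0.98 ± 0.21 and 0.73 ± 0.21, and the protein B protease Ctsh rose by 0.68 ± 0.17 in C57 after air and differed by 0.31 ± 0.19 and 0.01 ± 0.17 in AKR after smoke and after air. The genes that fell were Atp8a1 in AKR after smoke (-0.67 ± 0.13) and Pparg in C57 after air (-0.47 ± 0.11). For C57 after smoke the count was 0 with all arrays, and 5 rose and 0 fell without the doubted pair, where 10.9% of all genes were higher and 9.79% lower. Csf2 and its receptor chains are also expressed by leukocytes. Of 20 lipid synthesis genes, 4 rose and 2 fell in AKR after smoke, 4 rose and 2 fell in AKR after air, and 3 rose and 3 fell in C57 after air. In either direction 31.5%, 16.9% and 15.7% of all genes passed there. The fatty acid binding protein Fabp5 rose by 1.64 ± 0.29, 0.83 ± 0.26 and 1.10 ± 0.26, and Pgs1, which makes the precursor of phosphatidylglycerol, by 0.84 ± 0.14, 0.50 ± 0.13 and 0.59 ± 0.13. The elongase Elovl6 rose in AKR (1.15 ± 0.20 after smoke and 0.98 ± 0.18 after air), while Gpam, which starts glycerolipid synthesis, fell there (-0.64 ± 0.15 and -0.54 ± 0.13). The count in C57 after smoke was 0 with all arrays, and 3 rose and 6 fell without the doubted pair, beside the shares given above. With all arrays, smoke against air gave 0 calls in each of these 4 lists in every comparison. Smoke with LPS in AKR gave, without the doubted pair, 3 of the processing genes (Csf2 and P2ry2 higher, Atp8a1 lower) and 4 of the other type 2 markers (Il33 higher, Hc, Acoxl and Ppp1r14c lower), where 1.55% of all genes passed, and the other lists and smoke comparisons gave 0.

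Markers of other cells moved with LPS beside these genes. For weighing the counts, 16.9% of all genes tested rose and 14.6% fell in AKR after smoke. The shares were 9.45% and 7.41% in AKR after air, and 11.5% and 4.3% in C57 after air. Without the doubted pair they were 10.9% and 9.79% in C57 after smoke. Of 10 neutrophil markers 9 rose in AKR after smoke, 9 in AKR after air and 1 in C57 after air (8 without the doubted pair), and their mean relative to all arrays was 1.73 to 1.78 on AKR smoke LPS, against -1.47 to -1 on AKR smoke saline. Of 8 club cell markers 8 fell in AKR after smoke, 5 in AKR after air and 4 in C57 after air. Of 8 general epithelial markers 3 fell in AKR after smoke and 0 in the other LPS comparisons, and of 12 type 1 markers 1 rose in AKR after smoke and 0 passed in AKR or C57 after air. Of 5 leukocyte markers 5 rose in AKR in both exposures and 0 in C57 after air, and their mean was 0.67 to 0.76 on AKR smoke LPS, -1.52 to -1.08 on AKR smoke saline and -0.38 to -0.21 on AKR room air titled 3 weeks. Of 8 macrophage markers tested, 5 rose in AKR after smoke, 4 in AKR after air and 4 in C57 after air. Of 6 fibroblast markers 1 rose and 3 fell in AKR after smoke, 3 fell in AKR after air and 1 rose in C57 after air, while endothelial markers passed in 1 case (lower, C57 after air) and heart muscle markers in 0. In C57 after smoke 0 markers of these lists passed with all arrays. When the doubted pair was left out and 4 of the 10 genes passed, 9 neutrophil, 4 leukocyte and 4 macrophage markers rose there, and 6 club cell, 2 macrophage, 2 fibroblast, 2 endothelial and 1 type 1 markers fell. In C57 after air the counts without the pair were 6 club cell markers lower, 2 leukocyte markers higher, 4 macrophage markers higher and 2 lower, and 1 heart muscle marker lower. The share of all genes in that fit is not given. Over the alternative settings that include it, at most 3367 of the 14705 genes passed in either direction. The part of these markers in the values of the 10 genes was not tested.

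After removal of the mean of each set of arrays, the pairs of members that varied most alike over the 31 arrays were Sftpb with Sftpc (Pearson r = 0.90), Slc34a2 with Napsa (0.87) and Lamp3 with Napsa (0.86). Lpcat1 was closest to Sftpc (0.82), Abca3 to Sftpb (0.81), Sftpa1 to Lamp3 (0.72), Mfsd2a to Lpcat1 (0.63) and Sftpd to Sftpa1 (0.62). The likeness of Slc34a2 and Napsa lay mainly in the smaller set, with r = 0.94 over its 13 arrays and 0.37 over the 18 of the larger. Outside the 10 genes, those most like their mean were Paqr8, the type 1 cell receptor Ager, Hkdc1, Dennd5a, the cholesterol transporter Npc1 and Spock2, with the lower of the correlations in the 2 sets from 0.80 to 0.84. These correlations are descriptions over arrays that share treatments and array quality.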

How the data were processed

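The deposited values are log2 intensities per probe set, 1 column for each of 31 arrays, which the authors made with RMA per the submitters' processing notes; its version and settings are not given in the sources used here. RNA was labelled with biotin and handled by the standard Affymetrix protocol, per the labels. The files hold log2 values only, so intensities could not be checked for saturation.

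Of 35556 probe sets, 21789 carry 1 gene symbol in the platform annotation and 1621 several, which named no gene. The brightest probe set stood for a gene. Genes above the 40th percentile on at least 3 arrays were tested with limma in a single model of the 11 groups (20 residual degrees of freedom over 31 arrays), with 15 contrasts and two-sided tests with Benjamini-Hochberg adjustment over 14705 genes at 0.05. The fit was tested on simulated data. Errors after ± are standard errors of that fit, except for group means, which carry the SD over arrays.

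The 10 genes and all lists were chosen with earlier results of these data known. All 10 genes were to be reported in every comparison, and of each list of other type 2 genes up to 4 members with the largest absolute change; where differences were small the text gives the range of the 10, and list members are named mainly for LPS in AKR and in C57 after air, with Ctsh in AKR and the genes that fell in the processing list added after their values were seen; the 6 genes most like the members are also named. Alternatives were no filter, only the arrays compared, a replicate block, robust moderation with a trend, array medians subtracted, joint quantile normalization, mean probe sets, and arrays left out. Room air as the baseline for LPS was added after the data were seen.

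Replicate numbers paired saline with room air alone in C57, where deviations of same-numbered arrays correlated at 0.23 to 0.41 in 3 pairs; the labels state no pairing. In no other comparison of 3 pairs did every pair exceed 0.1.

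R 4.3.3, limma 3.58.1, Python 3.11.15 and matplotlib 3.10.9 were used.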

Additional observations from a re-analysis of the deposited data

How the results depend on the processing

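Among the alternative values of single genes, 2186 kept their side of the threshold, 60 lost a call, 27 gained one and 7 turned. Direction was compared only where the main or the alternative value passed, so the 2186 include values that changed sign without passing. Slc34a2 for LPS after air in AKR, for example, was 0.07 and ran from -0.43 to 0.23. The 7 turned with room air in place of saline as the baseline for LPS: Lamp3 (-0.17) and Mfsd2a (-0.77) in AKR after air, Slc34a2 (-0.17), Lpcat1 (-0.88), Napsa (-0.16) and Mfsd2a (-0.59) in AKR after smoke, and Mfsd2a (-0.58) in C57 after air. With that baseline 3 of the 10 genes passed in AKR after smoke. Without the filter 1 passed for LPS after air in C57 and 0 for saline against room air in C57, and in a fit of only the arrays compared 1 passed for LPS after air in AKR and 2 between strains with saline. Joint quantile normalization left 2 in that strain comparison and the set of arrays as a term 0. Subtracted medians and the replicate block each left 0 for saline against room air in C57; the replicate block changed no other count of the 10 by over 1.5 times. Without the doubted pair 4 passed for LPS after smoke in C57, 1 for saline against room air in AKR and 1 between strains in room air. Over the settings other than single arrays left out, 2038 to 3367 of all genes passed for LPS after air in C57. The numbers were 1485 to 3333 for LPS after air in AKR and 1187 to 7598 between strains with saline. The cause of these moves was not tested.

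With 1 array left out in turn, the count ran from 1 to 2 for LPS after air in C57, 2 to 3 in AKR, 0 to 1 after smoke in C57, 4 to 7 after smoke in AKR, 0 to 1 for saline against room air in each strain and 2 to 4 between strains with saline, and was 0 in the other comparisons. Passes over all genes with 1 array left out ran from 1121 to 1860 for LPS after air in C57 and 1368 to 2364 in AKR. They ran from 0 to 1881 after smoke in C57, and 4430 to 5153 between strains with saline. The number was 4229 after smoke in AKR without AKR smoke saline 3. For saline against room air it ran from 0 to 2 in C57. Among all genes, in the order alternative and then all arrays, only the arrays compared gave 1485 and 2479 passes for LPS after air in AKR, and the set term gave 1187 and 5640 between strains with saline. Without the doubted pair there were 402 and 167 for strain by LPS, 326 and 101 for saline against room air in AKR, 49 and 5 for smoke with saline in AKR, 228 and 1 for smoke with LPS in AKR, 17 and 0 for smoke by LPS in AKR, 16 and 2 for saline against room air in C57, and 3048 and 0 for LPS after smoke in C57. Saline against room air gave 32 (only the arrays compared) or 1 (no filter, replicate block or subtracted medians) against 2 in C57, and 0 (only the arrays compared) or 62 (replicate block) against 101 in AKR. Smoke with saline in AKR gave 1 (only the arrays compared, or subtracted medians) or 12 (trend, or joint quantile) against 5, smoke with LPS in AKR 0 to 2 against 1, and smoke by LPS in AKR 3 (only the arrays compared) against 0. With room air as the baseline AKR smoke LPS gave 2568 against 4631. Depth and saturation have no measure in these values.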
